A study of Mus musculus with 12 samples.

Results

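The mitochondrial ribosomal protein genes are the nuclear genes, named Mrpl or Mrps with a number, that encode most proteins of the mitochondrial ribosome. Members were all genes with such a symbol in the platform annotation, each read by the probe set assigned to that gene alone with the highest mean over the 12 arrays. The annotation named 78 such genes, and 76 of 18193 measured genes had a probe set of their own. Mrpl30 and Mrpl53 were named only on probe sets shared with other genes and were left out. Members were thus chosen by symbol, and their probe sets were selected on the mean level over all arrays, the only measured value in the rule. The family itself was chosen with earlier results of these data known. Of the 76 genes, 49 encode proteins of the large subunit and 26 of the small subunit. Mrps36 is the exception: despite its name, its product is now known as a component of the oxoglutarate dehydrogenase complex and not of the mitochondrial ribosome. By their current assignment Mrps30 and Mrps18a belong to the large subunit in spite of their symbols.

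The mitochondrial ribosome, or mitoribosome, translates the few messages of the mitochondrial genome, which encode core subunits of the respiratory chain and of ATP synthase. Its RNA is transcribed inside the organelle, while its proteins are made in the cytosol and imported. Some of these proteins descend from the bacterial ribosome, and others are found in mitochondria only. In the embryonic gonad, cells of the supporting lineage choose between the testis and ovary paths while they divide.

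Gonads of mouse embryos at E11.5, the stage at which the sexes begin to diverge, were profiled on Affymetrix arrays. Embryos from crosses of Cbx2 heterozygotes were wild type (WT) or Cbx2 knockout (KO), each XX or XY, and 3 arrays were made for each of the 4 groups. Cbx2 is a subunit of the Polycomb repressive complex PRC1, which keeps developmental genes silent, and the design asks how its loss changes expression in each sex. The embryos received no treatment, and no strain is named. For each array, gonadal cells of 2 or 3 embryos were captured by laser from 30 µm frozen sections and pooled, so P-values rest on the spread between pools. In such bulk samples fewer cells of a type and less RNA per cell cannot be told apart.

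Groups follow the sample titles and genotype field. The WT samples carry KO XX in their source field, which goes against both. Xist and the Y-linked gene Eif2s3y matched the labelled sex in all 12 arrays. The Cbx2 probe set read higher in the arrays labelled KO (9.27 to 9.58) than in those labelled WT (8.46 to 9.04, log2 values). The labels do not say which part of Cbx2 was deleted, so this probe set checks nothing about the knockout. All 6 gonadal somatic markers listed (Gata4, Wt1, Lhx9, Nr5a1, Emx2 and Tcf21) were measured, with a lowest single value of 7.34 against a median gene level of 7.11. Summed over the list, these markers spanned 13.26 to 13.76 in KO and 13.68 to 14.03 in WT arrays (log2 of the sum). In KO arrays 3 of the 6 passed the test as lower and 1 as higher. Sums of other cells' markers shifted with genotype too. Mesonephros markers spanned 7.56 to 8.33 in KO and 8.75 to 10.08 in WT arrays, and endothelial markers 10.28 to 11.09 and 10.90 to 11.26. Macrophage markers spanned 10.97 to 11.91 in KO and 10.47 to 11.16 in WT arrays, and germ cell markers 10.48 to 10.82 and 10.06 to 10.66. The markers read highest weigh most in such sums. Log2 differences of the mesonephros markers, KO minus WT over both sexes, ran from -2.77 to 0.66 with a median of -0.16. Their sum thus does not describe a shift of the whole list. By the median marker of each array, KO and WT overlapped for the gonadal somatic, mesonephros and germ cell lists. For the endothelial and macrophage lists these medians did not overlap. Over both sexes, 2 of 5 mesonephros markers measured were lower and 1 higher, and 4 of 6 endothelial markers were lower. In the same comparison 3 of 6 macrophage and 4 of 6 germ cell markers were higher. Of all genes, 10.3% passed as lower and 13.4% as higher over both sexes. Of 6 erythroid markers none passed by limma over both sexes. In XY 1 was lower (limma adjusted p = 0.0482), and 3 of 6 were lower without overlap. Of all genes, 6.75% passed as lower in XY and 18.1% were lower there without overlap. The marker lists are short, and their counts were not tested against these shares. The part of these markers in the results below was not tested.

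The members' mean levels over the 12 arrays ran from 6.56 to 12.09 with a median of 9.45, against a median of 7.11 over all genes (log2 RMA values). Quartiles of the members were 8.71 and 10.41, and 75 of the 76 lay at or above the median of all genes. The lowest was Mrpl54, a mitochondrion-specific large-subunit protein gene, followed by Mrpl1 at 7.46. At the top were Mrpl51 at 12.09 and Mrpl39, which encodes a protein related to a tRNA synthetase, at 12.03. Array values carry the probes' own affinities, and the probe sets were selected on these means, so the levels describe the readings and do not rank the transcripts' abundance. The median level was 9.86 for large-subunit and 9.30 for small-subunit genes, with the same limit.

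The members' median level was lower in KO than in WT arrays in XY, while in XX the arrays overlapped. The median over the 76 genes was 9.83, 9.60 and 9.66 in WT XY and 9.58, 9.34 and 9.54 in KO XY pools 1 to 3. In XY, the highest KO array thus lay just under the lowest WT array. In XX the medians were 9.73, 9.41 and 9.37 in WT and 9.36, 9.06 and 9.47 in KO, and these ranges overlapped. KO XX replicate 3 lay above WT XX replicates 2 and 3. Arrays of a group also differed among themselves. In replicates 1 to 3, the number of the 76 genes above their own group mean was 55, 32 and 16 in WT XX and 65, 26 and 7 in WT XY. It was 48, 6 and 67 in KO XX and 59, 10 and 62 in KO XY. Of all genes, between 38.1% and 55.9% lay above their group mean in an array.

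**Figure D1:**
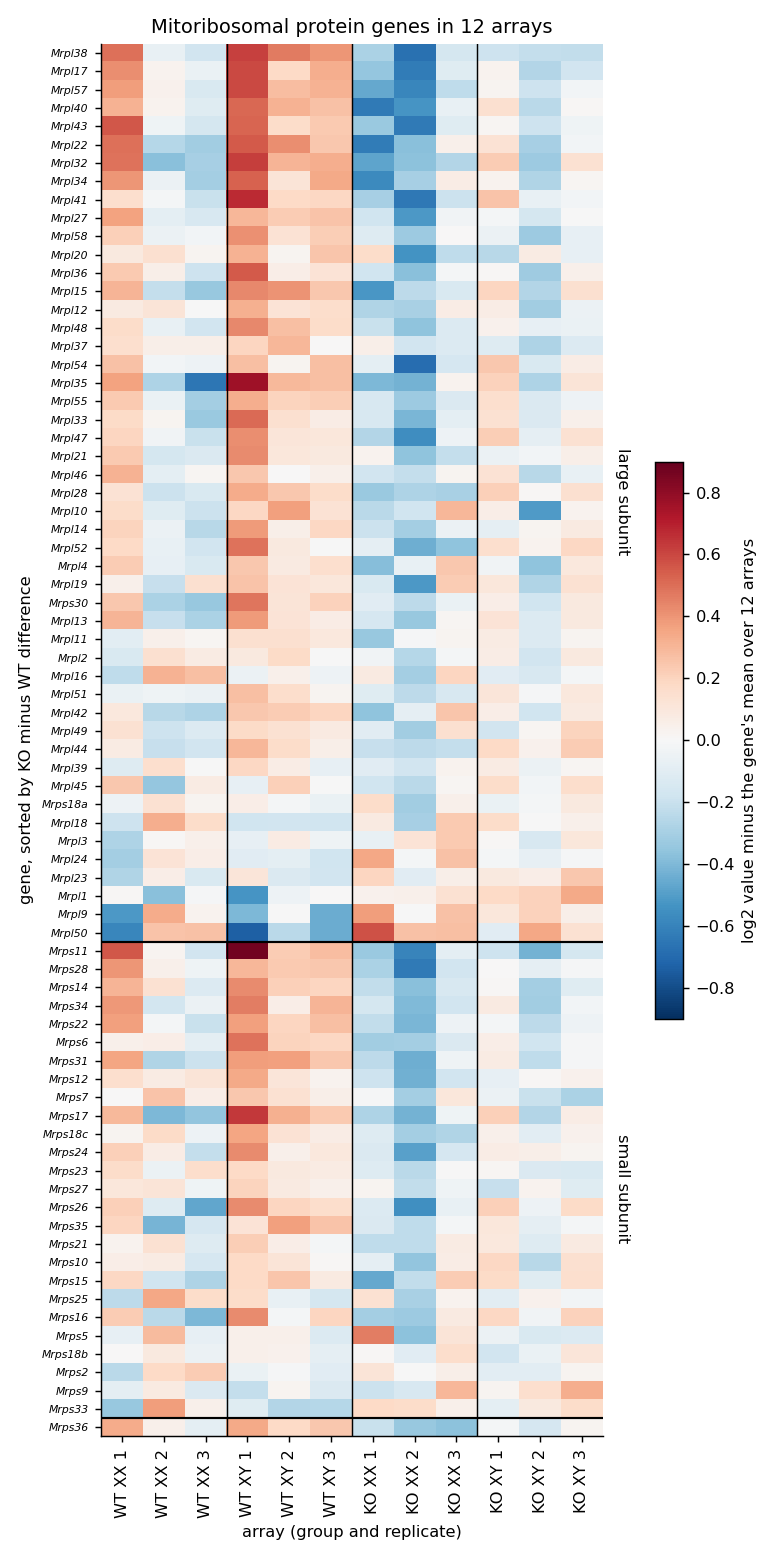
Each row is 1 of the 76 genes and each column 1 of the 12 arrays; colour gives the log2 value minus the gene's mean over all arrays, with genes sorted by the KO minus WT difference within the large subunit, the small subunit and Mrps36. WT XY replicate 1 and WT XX replicate 1 are mostly red and KO XX replicate 2 is mostly blue, while a few genes such as Mrpl50 run the other way.

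Over both sexes, 19 of 76 members were lower in KO gonads and 2 were higher at an adjusted p under 0.05. The 19 include Mrps36, whose product is not part of the mitochondrial ribosome. Of all genes, 10.3% passed as lower and 13.4% as higher in that comparison, so members were called lower more often and higher less often than genes at large, as a description. The median log2 difference, KO minus WT, was -0.18 over the members and -0.012 over all genes. It was below 0 for 66 of 76 members, compared with 52.7% of all genes. All genes are not matched to the members in level: 75 of the 76 lay at or above their median. Shares among genes of like level are not given here. The changes were small: among the genes that passed as lower, they ran from -0.24 in Mrps18c to -0.60 in Mrps11. The tests were limma's moderated tests on all 18193 genes, with Benjamini-Hochberg adjustment over all of them. Without KO XX pool 2 the 19 genes became 9, without KO XY pool 2 they became 10, without WT XX pool 1 12 and without WT XY pool 1 8. Shares of all genes in these refits are not given here. The more frequent lower calls among members are thus described for the mean of both sexes in the fit of all 12 arrays only. Within each sex members were not called lower more often: 2.63% were in XY and 5.26% in XX. Of all genes, 6.75% and 5.4% were. Over both sexes, the 2 higher genes became 0 without KO XX pool 1, KO XY pool 2 or WT XY pool 1. They became 1 without any other KO pool.

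**Figure D2:**
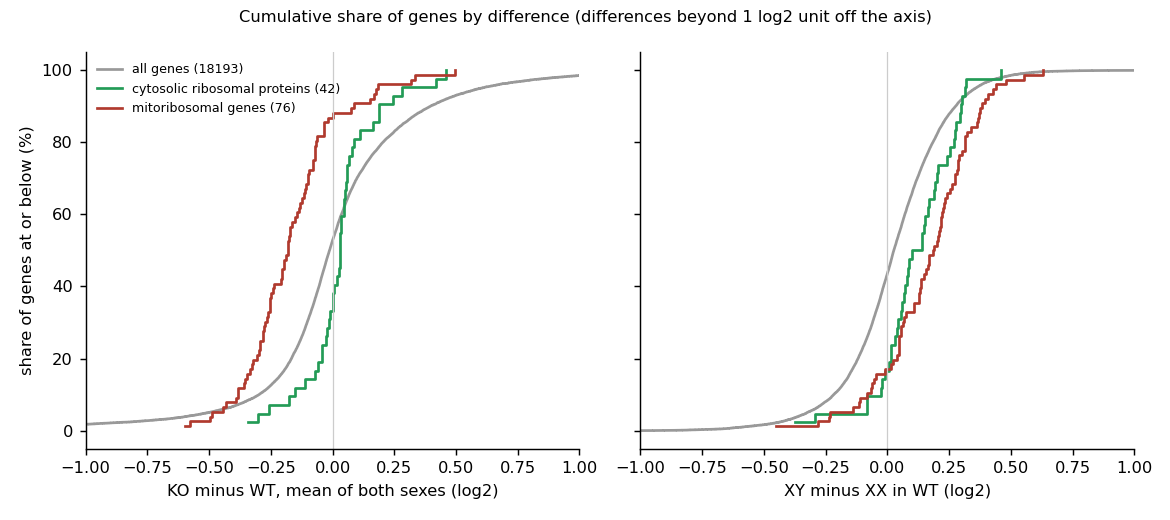
Each curve gives the cumulative share of genes (%) at or below a log2 difference, for the 76 mitoribosomal genes, 42 cytosolic ribosomal protein genes and all 18193 genes. In the KO minus WT panel the mitoribosomal curve lies left of both others over most of its range, with medians of -0.18, 0.031 and -0.012. In the XY minus XX panel for WT it lies right of the curve of all genes over most of its range. There it is closer to the cytosolic curve, with medians of 0.19, 0.12 and 0.026.

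The lower genes came from both subunits. In the large subunit 10 of 49 genes were lower and 2 higher, with a median log2 difference of -0.18. In the small subunit 8 of 26 were lower and none higher, with a median of -0.19. Genes with a bacterial counterpart gave 9 lower and 1 higher of 45, and those for mitochondrion-specific proteins 9 lower and 1 higher of 29, with medians of -0.18 and -0.17. No test compared these classes, and shares of all genes in the refits that follow are not given here. When 1 array was left out, the lower genes ran from 4 to 14 in the large and 3 to 9 in the small subunit, and from 4 to 11 with a bacterial counterpart and 3 to 11 for mitochondrion-specific proteins. The lowest counts came without WT XY replicate 1, tied without KO XX or KO XY replicate 2 for the large subunit and the mitochondrion-specific class. The large subunit also had 5 without WT XX replicate 1 and 6 without WT XY replicate 2, and the small subunit 4 without KO XX replicate 2 and 5 without KO XY replicate 2 or 3. By origin, the bacterial class had 5 without KO XX replicate 2 and the mitochondrion-specific class 4 without WT XX replicate 1. By mean level, 6 of the 26 lowest, 8 of the 25 middle and 5 of the 25 highest members were lower, with median differences of -0.21, -0.20 and -0.11.

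Mrpl38, which encodes a mitochondrion-specific large-subunit protein, had the smallest p. Its values were 9.03, 8.89 and 8.82 in WT XY and 8.23, 8.20 and 8.20 in KO XY pools. In XX they were 8.91, 8.35 and 8.25 in WT and 8.13, 7.75 and 8.26 in KO. The groups were apart in XY, while KO XX replicate 3 reached above the lowest WT XX pool. Over both sexes Mrpl38 was lower by a log2 difference of -0.58 ± 0.12 (SE, limma adjusted p = 0.00229).

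Mrpl57 encodes another protein that bacteria lack, also in the large subunit. Its values were 10.42, 10.10 and 10.13 in WT XY against 9.85, 9.64 and 9.80 in KO XY, and 10.20, 9.86 and 9.69 in WT XX against 9.37, 9.24 and 9.60 in KO XX. KO and WT did not overlap in either sex. The log2 difference over both sexes was -0.49 ± 0.10 (limma adjusted p = 0.00297). Mrpl17, a large-subunit gene with a bacterial counterpart, had 9.60, 9.18 and 9.33 in WT XY and 9.03, 8.74 and 8.83 in KO XY. In XX it had 9.42, 9.04 and 8.95 in WT and 8.65, 8.38 and 8.90 in KO. The 2 genotypes were again apart within each sex, and the difference was -0.50 ± 0.12 (limma adjusted p = 0.00545).

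In the small subunit, Mrps11 showed the widest drop; its product lies on the platform of the subunit. Its values were 8.48, 7.84 and 7.88 in WT XY and 7.42, 7.18 and 7.45 in KO XY. In XX they were 8.17, 7.63 and 7.43 in WT and 7.27, 7.01 and 7.52 in KO, which overlapped. The log2 difference over both sexes was -0.60 ± 0.14 (limma adjusted p = 0.00728). Mrps14, whose product sits in the subunit's head, had 11.32, 11.11 and 11.08 in WT XY and 10.91, 10.59 and 10.79 in KO XY. In XX its values were 11.20, 11.03 and 10.77 in WT and 10.67, 10.52 and 10.75 in KO, with no overlap in either sex. Its difference was -0.38 ± 0.094 (limma adjusted p = 0.00797).

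Mrps28, the counterpart of a bacterial protein that binds messages, had 8.40, 8.34 and 8.35 in WT XY and 8.10, 8.02 and 8.09 in KO XY. In XX it had 8.50, 8.14 and 8.06 in WT and 7.82, 7.47 and 7.93 in KO. All KO pools lay below all WT pools of the same sex, and the difference was -0.39 ± 0.097 (limma adjusted p = 0.00832). Mrps36, the gene that is not mitoribosomal, behaved in the same direction. Its values were 8.19, 8.03 and 8.09 in WT XY, 7.84, 7.70 and 7.87 in KO XY, 8.19, 7.90 and 7.77 in WT XX and 7.65, 7.51 and 7.48 in KO XX. The groups did not overlap in either sex, and the difference was -0.35 ± 0.086 (limma adjusted p = 0.00745). Mrps12, whose product is part of the decoding centre, changed by -0.27 (limma adjusted p = 0.0236).

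**Figure D3:**
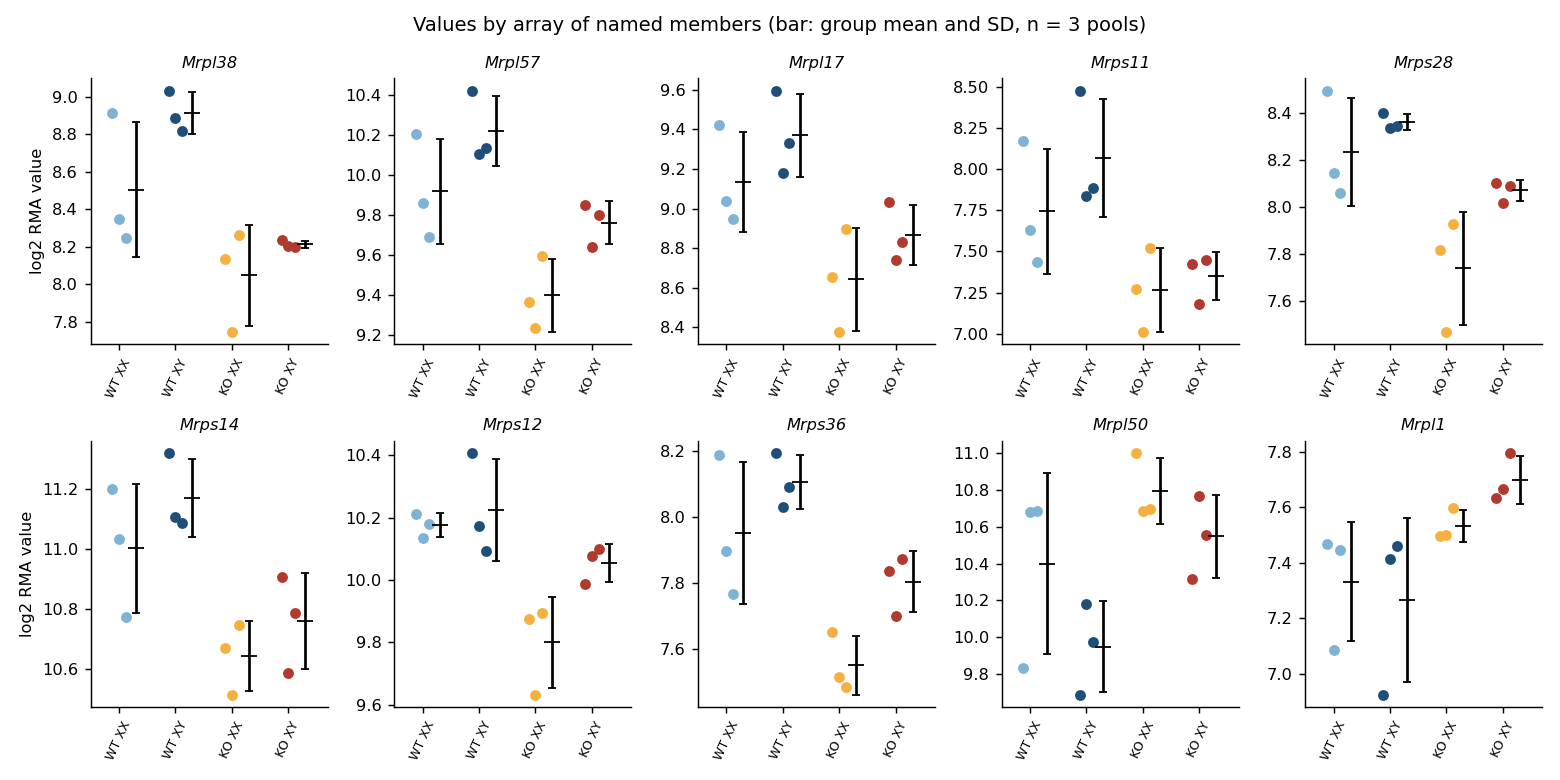
Points give the log2 RMA value of each array for 10 genes in WT XX, WT XY, KO XX and KO XY, with a bar for the group mean and SD (n = 3 pools); the vertical axes differ between panels and do not start at 0. Of the 8 genes that were lower in KO, Mrpl57, Mrpl17, Mrps28, Mrps14 and Mrps36 have every KO point under every WT point of the same sex, while Mrpl50 and Mrpl1 are higher in KO.

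Of the other lower genes, Mrpl40 and Mrpl43 had differences of -0.44 and -0.43. Mrpl58, which encodes a peptide-releasing factor that frees stalled ribosomes and is built into the large subunit, had -0.30. Mrps6 and Mrps22 had -0.29 and -0.33; inherited defects of the human MRPS22 gene are known in ovarian insufficiency. Mrpl12, which forms the flexible stalk that engages translation factors, and Mrps18c passed with -0.26 and -0.24 (limma adjusted p = 0.0491 and 0.0457). The remaining lower genes were Mrpl27, Mrpl37, Mrpl48 and Mrps34, between -0.25 and -0.33. Of the 21 settings run, Mrpl12 passed in 6, Mrps18c and Mrpl27 in 9, Mrpl48 and Mrps34 in 10, Mrps22 in 12 and Mrpl37 and Mrpl58 in 13.

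The 2 higher genes were Mrpl50, for a mitochondrion-specific protein, and Mrpl1, for the stalk beside the tRNA exit site. Mrpl50 had 9.69, 10.18 and 9.98 in WT XY and 10.32, 10.77 and 10.56 in KO XY. In XX it had 9.83, 10.68 and 10.69 in WT and 11.00, 10.68 and 10.69 in KO. The XY groups were apart, and in XX only WT replicate 1 was clearly lower. The log2 difference was 0.50 ± 0.15 (limma adjusted p = 0.0246). Mrpl1 had 6.92, 7.41 and 7.46 in WT XY against 7.64, 7.67 and 7.80 in KO XY, and 7.47, 7.08 and 7.45 in WT XX against 7.50, 7.50 and 7.60 in KO XX. Every KO pool lay above every WT pool, and the difference was 0.32 ± 0.10 (limma adjusted p = 0.0386). Mrpl1 was the 1 member whose KO and WT arrays did not overlap over both sexes, against 6.22% of all genes higher and 5.0% lower without overlap.

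Both of these depended on the probe set. The second probe set of Mrpl1, with a mean of 7.30, gave -0.40, and that of Mrpl50, with a mean of 7.65, gave -0.20. Of the 42 members with several probe sets, the first and second had the same sign in 26, and the means of the first exceeded those of the second by a median of 1.95. Among the 11 called members with a second probe set, 5 had the same sign in both. Mrps14 gave 0.34 on its second probe set, Mrpl57 0.041, Mrpl17 0.049 and Mrpl38 -0.039, while Mrps11 gave -0.43 and Mrps6 -0.36. When all probe sets of a gene were averaged, Mrps14 gave 0.14 and Mrpl1 -0.021, and Mrpl17 and Mrpl50 no longer passed by limma. By the suffix of the probe set name, 7 members were read by probes that can match several transcripts (suffix s, 4 of them called: Mrpl37, Mrpl38, Mrps12 and Mrps6) and 4 by probes that may cross-hybridise (suffix x, 1 called: Mrpl48). These readings are uncertain in that respect.

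Many members did not pass. The differences over both sexes were -0.036 for Mrps5, -0.017 for Mrps18b, -0.034 for Mrps18a and -0.14 for Mrps30. Mrps2 had 0.0023, and its sign, like those of Mrps5, Mrps18a and Mrps18b, turned in some alternatives. The stalk genes Mrpl10 and Mrpl11 had -0.18 and -0.12, and Mrpl41 had -0.32 with a limma adjusted p of 0.0563. Mrpl45, which ties the mitoribosome to the inner membrane, had -0.036, and Mrpl44, related to ribonucleases, had -0.07. Mrpl39 and Mrpl51, the members read highest, had -0.068 and -0.10. Mrpl54, the lowest, had -0.25 (limma adjusted p = 0.135). A p over the threshold does not show that these genes were equal between genotypes: the median SE was 0.104 over both sexes.

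Within XY, 2 members (2.63%) were lower in KO and none higher, less often than the 6.75% and 6.56% of all genes. These were Mrpl38, with a log2 difference of -0.70 ± 0.17, and Mrps11, with -0.71 ± 0.20 (limma adjusted p = 0.0117 and 0.0311). The median over members was -0.20 and that over all genes 0.007, and 65 of 76 members were below 0, as were 48.8% of all genes. The KO and WT pools did not overlap in 35 members that were lower and 6 that were higher, beside 18.1% and 18.9% of all genes. At an unadjusted p under 0.05, 18 members were lower and 3 higher, against 12.8% and 12.9% of all genes. The 2 lower genes became 0 without WT XY replicate 1, 1 without any of the KO XY pools, 4 without KO XX replicate 2 or WT XX replicate 3 and 9 without WT XX replicate 1. Members higher in KO became 2 without WT XX replicate 1 and 1 without WT XX replicate 2. XX pools enter this comparison only through the shared estimate of spread.

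Within XX, 4 members (5.26%) were lower in KO and none higher, near or below the 5.4% and 8.3% of all genes. They were Mrps28 at -0.50 ± 0.14, Mrpl57 at -0.52 ± 0.15, Mrps36 at -0.40 ± 0.12 and Mrps12 at -0.38 ± 0.11 (limma adjusted p = 0.0262, 0.0295, 0.0400 and 0.0417). The values of Mrps12 were 10.21, 10.13 and 10.18 in WT XX and 9.87, 9.63 and 9.89 in KO XX, and in XY 10.41, 10.17 and 10.09 in WT and 9.99, 10.08 and 10.10 in KO. XX groups were apart and XY groups overlapped. The members' median was -0.15, that of all genes -0.018, and 62 of 76 members were below 0, as were 52.9% of all genes. Pools did not overlap in 12 members that were lower and 1 that was higher, beside 12.5% and 14.1% of all genes. At an unadjusted p under 0.05, 14 members were lower and none higher by limma, against 11.4% and 15.3%. With array weights, or with only the XX groups in the fit, none of the 4 passed by limma. They became 0 without KO XX replicate 2 or WT XX replicate 1, 2 without KO XX replicate 1, KO XY replicate 1 or 3, WT XX replicate 2 or WT XY replicate 2 or 3, and 8 without WT XX replicate 3.

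No difference between the sexes in the genotype effect passed limma's interaction test. The lowest adjusted p of a member was 0.758, and of all genes 0.0% passed as higher and 0.0055% as lower. None had an unadjusted p under 0.05, where 2.5% of all genes were higher and 3.95% lower. The difference, XY minus XX, had a median of -0.036 over members with a median SE of 0.208, so moderate differences between sexes were not detectable. The XY and XX comparisons share no arrays. A total of 59 members (77.6%) were lower in KO in both, 8 were higher in both and 9 went opposite ways, while 34.4% of all genes were lower in both. Pearson's r between the 2 differences was 0.76 over the 76 members and 0.83 over all genes, where genes of the same arrays are not independent points.

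**Figure D4:**
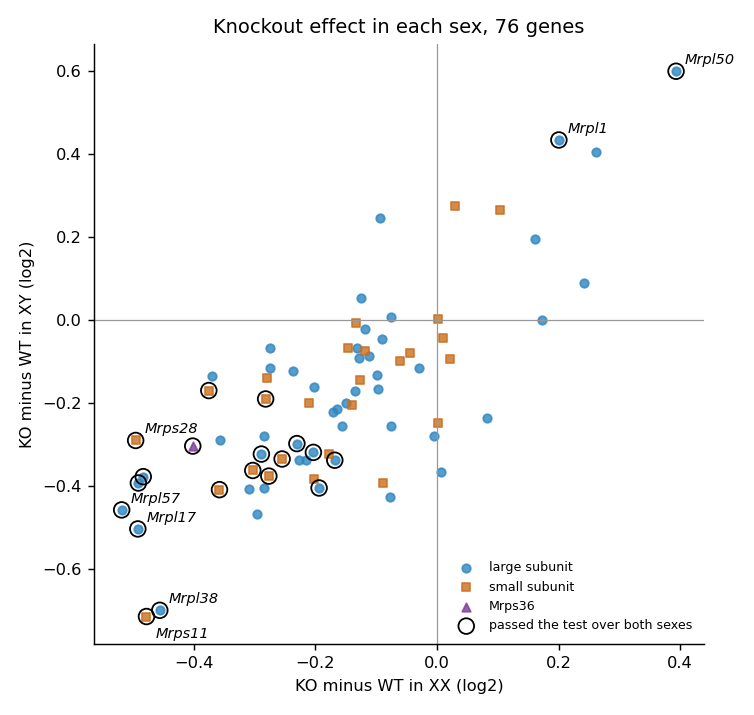
Each point is 1 of the 76 genes, placed by its KO minus WT log2 difference in XX (horizontal) and in XY (vertical); shape and colour give the subunit and rings mark genes that passed over both sexes. Most points, 59 of 76, lie in the lower left, and Mrpl50 and Mrpl1 lie in the upper right.

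XY gonads read slightly higher than XX gonads for most members, but no member passed the test in either genotype. In WT, the median XY minus XX log2 difference was 0.19 over members and 0.026 over all genes, with 13 of 76 members below 0 (43.5% of all genes). No member passed by limma, with a lowest adjusted p of 0.459; 0.055% of all genes passed as higher and 0.0055% as lower. At an unadjusted p under 0.05, 16 members were higher and 1 lower, against 7.25% and 3.19% of all genes. XY pools were all above XX pools in 7 members and all below in none, beside 10.0% and 3.21% of all genes. Cytosolic ribosomal protein genes had a WT median of 0.12, with 7 of 42 below 0, and XY pools were all above XX pools in 12. The WT shift was thus not particular to the members. In KO the cytosolic median was 0.054, with 14 of 42 below 0. Without WT XX replicate 1, 14 members passed as higher and 1 as lower. The share of all genes in that refit is not given here, so this count is not set against genes at large. In KO the median was 0.16 over members and 0.033 over all genes, with 15 of 76 members below 0 (43.0% of all genes). No member passed by limma (lowest adjusted p = 0.415; 0.022% and 0.011% of all genes), and 11 were higher and none lower at an unadjusted p under 0.05, against 5.46% and 4.55% of all genes. XY pools were all above XX pools in 14 members and all below in none, beside 9.1% and 8.01% of all genes.

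Mrpl28, a large-subunit gene with a bacterial counterpart, was among the members with the smallest p in both. Its values were 10.54, 10.22 and 10.27 in WT XX and 10.74, 10.65 and 10.58 in WT XY, and 10.07, 10.13 and 10.12 in KO XX and 10.62, 10.42 and 10.56 in KO XY. XY pools lay above XX pools of the same genotype. The log2 differences were 0.31 ± 0.11 in WT and 0.43 ± 0.11 in KO (limma adjusted p = 0.459 and 0.415). Mrpl28 was chosen after its values were seen.

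The array carries control probe sets at the 3′ and 5′ ends of Gapdh, and the 3′ minus 5′ difference grows as messages are read less far from their 3′ end. It was 3.89, 4.57 and 3.92 in WT XY and 4.96, 4.78 and 5.0 in KO XY (log2). In XX it was 3.83, 4.37 and 4.72 in WT and 4.23, 4.10 and 3.81 in KO. KO XY pools were thus higher than all others, while KO XX pools were not. The KO minus WT difference was 0.786 in XY (exact permutation p = 0.1, the smallest that 3 against 3 allows) and -0.258 in XX (exact permutation p = 0.4, two-sided). The members' median difference, KO minus WT, was below 0 in both sexes. The control was higher in KO in XY, while in XX its KO and WT values overlapped and no direction is read from it. The actin control gave 0.547 in XY and -0.383 in XX (exact permutation p = 0.1 and 0.2).

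With the Gapdh difference as a covariate, added to the same limma model, 8 members were lower over both sexes and none higher, and all 8 were among the 19. Within XY no member passed by limma, and within XX 11 were lower and 1 higher. Shares of all genes called in this covariate fit are not given here. The members' median KO minus WT difference became -0.035 in XY and -0.23 in XX, with -0.12 for the mean of the sexes. In XY the control separates KO from WT completely, so the covariate takes up part of the genotype comparison, and the 2 cannot be told apart there. Mrpl38 and Mrps11 then had XY differences of -0.33 and -0.20 (limma adjusted p = 0.600 and 0.856). The median XY minus XX difference in KO rose to 0.34, and the median interaction was 0.20. The control also separates KO XY from KO XX completely, with a difference of 0.867 (exact permutation p = 0.1). Sex in KO and the control thus cannot be told apart either, with or without the covariate, and the interaction has the same limit.

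**Figure D5:**
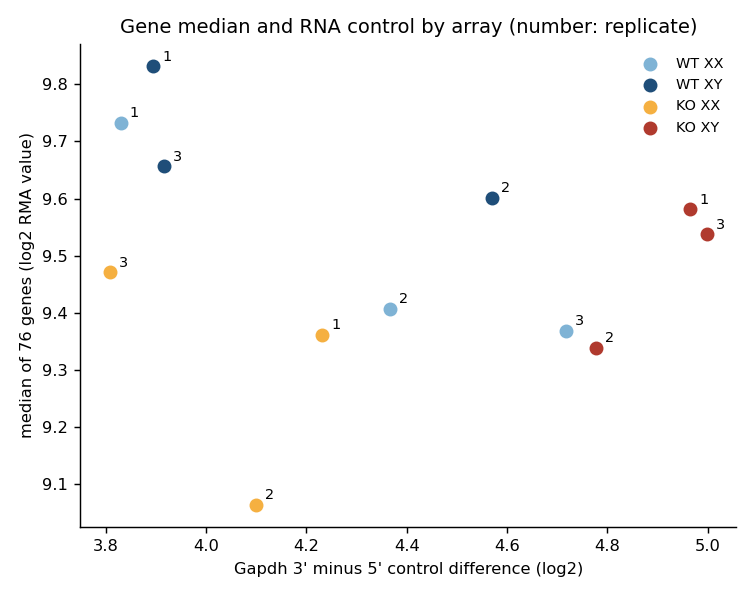
Each point is 1 array, numbered by replicate and coloured by group, with the Gapdh 3′ minus 5′ control difference (log2) on the horizontal and the median log2 RMA value of the 76 genes on the vertical axis. KO XY arrays lie at the right, at 4.78 to 5.0, and KO XX replicate 2 is the lowest, at 9.06; the points of the 4 groups form separate clusters in part, so no pooled correlation is given.

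Promoters were read from RefSeq sequence, which had entries for 67 of the 76 members. Promoters of nuclear genes for mitochondrial proteins often bind ETS-family factors such as GABPA, nuclear respiratory factor 1 (NRF1) and YY1. The 250 bases before the start were searched on both strands for an ETS core (CCGGAAG) and for longer NRF1 and YY1 cores, the NRF1 core being the same on both strands. Of these, 5 are shown from the gene's strand, 5′ to 3′, in build GRCm38.p6: Mrpl43, Mrps22 and Mrpl58 as lower genes with the ETS core close to the start, Mrps11 as the gene with the widest drop, and Mrpl50 as a higher gene with none of the 3. Capitals mark these cores.
Mrpl43 promoter, chr19:45006443-45006692, minus strand: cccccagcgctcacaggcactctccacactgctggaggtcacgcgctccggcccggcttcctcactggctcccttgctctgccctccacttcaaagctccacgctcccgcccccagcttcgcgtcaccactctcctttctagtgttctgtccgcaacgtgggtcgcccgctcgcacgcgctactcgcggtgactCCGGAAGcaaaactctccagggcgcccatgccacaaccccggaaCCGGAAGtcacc
Mrps22 promoter, chr9:98601680-98601929, minus strand: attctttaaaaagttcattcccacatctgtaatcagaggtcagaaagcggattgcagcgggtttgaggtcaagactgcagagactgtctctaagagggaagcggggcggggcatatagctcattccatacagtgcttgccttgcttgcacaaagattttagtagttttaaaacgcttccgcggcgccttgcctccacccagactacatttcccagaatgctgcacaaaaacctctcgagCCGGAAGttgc
Mrpl58 promoter, chr11:115403502-115403751, plus strand: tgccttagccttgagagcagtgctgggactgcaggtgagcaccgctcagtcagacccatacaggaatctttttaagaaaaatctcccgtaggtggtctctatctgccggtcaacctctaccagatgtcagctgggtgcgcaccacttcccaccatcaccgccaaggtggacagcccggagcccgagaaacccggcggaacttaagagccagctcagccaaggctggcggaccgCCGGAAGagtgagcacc
Mrps11 promoter, chr7:78782881-78783130, plus strand: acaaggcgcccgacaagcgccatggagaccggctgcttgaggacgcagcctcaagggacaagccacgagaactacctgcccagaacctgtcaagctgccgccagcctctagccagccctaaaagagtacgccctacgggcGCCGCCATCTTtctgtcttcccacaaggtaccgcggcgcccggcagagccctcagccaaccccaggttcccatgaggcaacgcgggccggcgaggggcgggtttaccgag
Mrpl50 promoter, chr4:49521084-49521333, minus strand: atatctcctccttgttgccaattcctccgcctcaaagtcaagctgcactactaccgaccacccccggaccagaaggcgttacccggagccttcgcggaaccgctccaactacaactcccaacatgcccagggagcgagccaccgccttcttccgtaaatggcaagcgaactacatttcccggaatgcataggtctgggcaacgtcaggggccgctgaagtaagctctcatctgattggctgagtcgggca

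The ETS core began 56 and 12 bases before the start in Mrpl43, 11 in Mrps22 and 17 in Mrpl58. It occurred in 17 of 67 members (25.4%) and in 11.8% of 14449 array genes with an entry. Of the 16 lower members with an entry 7 held it, of the 49 that did not pass 10 did, and of the 2 higher none did. The NRF1 core occurred in 3 members (4.48% against 1.43%), none of them among the lower genes. The YY1 core occurred in 1, Mrps11, 110 bases before the start on the other strand (1.49% against 0.401%). The GC box GGGCGG was in 49.3% of members and 53.4% of array genes, the CCAAT box (CCAAT) in 35.8% and 39.4%, the TATA box TATAAA in 7.46% and 10.5% and the E-box CACGTG in 7.46% and 8.73%. The GC box was in 12 of the 16 lower members and 20 of the 49 that did not pass, and the CCAAT box in 3 and 20. The median GC content was 58.4% in members and 57.6% in array genes, and within the members 60.0% in the lower genes and 57.2% in those that did not pass. None of these shares was tested. A match describes letters and does not show binding.

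Genes that work with the mitoribosome are given for KO against WT over both sexes, where 13.4% of all genes passed as higher and 10.3% as lower. The lists are short, and their counts were not tested against those shares. Of 12 mitochondrial translation factor genes, 2 rose and 1 fell: Guf1, a back-translocating elongation factor, by 0.76 ± 0.10, Mrrf, the ribosome recycling factor, by 0.50 ± 0.12, and Gfm1, an elongation factor, with -0.36 ± 0.10 (limma adjusted p = 4.37e-05, 0.00582 and 0.0140). Of 18 assembly genes, 1 rose and 4 fell. Nsun4, a ribosomal RNA methyltransferase needed to join the subunits, rose by 0.67 ± 0.10, and Mrm1, which methylates the large ribosomal RNA, had -0.76 ± 0.10 (limma adjusted p = 0.000166 and 7.87e-05). Mpv17l2, an inner-membrane protein that aids assembly, had -0.43 ± 0.083 (limma adjusted p = 0.00151). Of 19 mitochondrial tRNA synthetase genes, 3 fell and none rose: Nars2 with -0.91 ± 0.16, Yars2 with -0.80 ± 0.10 and Wars2 with -0.36 ± 0.10 (limma adjusted p = 0.000652, 4.34e-05 and 0.0185). The list medians were -0.071, 0.021 and -0.13. When probe sets were averaged, Gfm1 became -0.10 and Wars2 -0.17 and neither passed. With the Gapdh covariate Wars2 missed the threshold at -0.35.

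Among 10 regulators of mitochondrial biogenesis 3 rose and none fell. Ppargc1a, a coactivator that drives mitochondrial gene programmes, rose by 2.29 ± 0.18 (limma adjusted p = 3.30e-07), and its list had a median of -0.11. Gabpa, the DNA-binding ETS subunit, and Gabpb2, a partner, rose by 0.32 ± 0.090 and 0.32 ± 0.10 (limma adjusted p = 0.0168 and 0.0338). When all probe sets of a gene were averaged these became -0.027 and 0.0058. Mterf1a, a transcription termination factor, rose by 0.47 ± 0.13 as the only call among 13 transcription and RNA genes (limma adjusted p = 0.0134). Of 14 import and chaperone genes, Timm17a, a subunit of the inner-membrane translocase, fell, with -0.27 ± 0.085 (limma adjusted p = 0.0329). With the Gapdh covariate Gabpa, Gabpb2, Mterf1a and Timm17a missed the threshold at differences of 0.28, 0.32, 0.35 and -0.25. None of the 4 other mitoribosome subunit genes passed by limma, with a median of -0.24.

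Cytosolic ribosomal proteins gave a comparison of the same kind of machine outside the organelle. Of 42 genes, 1 rose and 1 fell in KO, and the median was 0.031. Rps19 rose by 0.46 ± 0.14, and Rpl41 fell, with -0.34 ± 0.090 (limma adjusted p = 0.0262 and 0.0119). With the Gapdh covariate they missed the threshold at 0.32 and -0.26, and Rpl41 also missed it at -0.16 with probe sets averaged. The 1 higher gene became 0 without KO XX replicate 2, KO XY replicate 2 or 3 or WT XY replicate 1 or 3, 2 without KO XX replicate 1 and 4 without WT XX replicate 2. The 1 lower gene became 3 without KO XX replicate 3 and 2 without WT XX replicate 2. The difference between the lists was not tested.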

How the data were processed

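RNA of 12 pools was profiled; 15 ng of total RNA per pool passed through 2 cycles of amplification and biotin labelling, per the labels' protocols. The deposited log2 values came from the authors' RMA run, a method that subtracts background, quantile-normalizes arrays and summarises probes. Expression Console of Affymetrix, RMA and affy are the tools in the submitters' processing notes, with versions not given in the sources used here. Values ran from 2.37 to 15.0 and array medians from 5.88 to 5.94, and they were taken unchanged, without a filter on low values. For arrays, their number limits the precision.

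Of 45101 probe sets, 34945 named 1 gene, 932 several and 9160 none, and 64 were controls. For each of 18193 genes the probe set of highest mean was used; of the single-gene probe sets, 34741 matched current gene identifiers, and no symbol changed. The 4 group means were fitted with limma 3.58.1 (R 4.3.3, lmFit and eBayes, 8 residual degrees of freedom), with two-sided tests adjusted by Benjamini-Hochberg within each of 6 contrasts. The fit was tested on simulated data with known changes larger than any of the members'. Its recovery of changes of the members' size was not tested. Replicate numbers were checked by the correlation, over all genes, of same-numbered arrays' deviations from their group means. Every pair of arrays passed 0.1 in WT XX with WT XY only. The labels do not say what the numbers share. Control differences were compared by exact permutation tests. Labels do not say that pools of a group came from separate litters. Alternatives covered normalization, filter, probe set choice, variance trend, array weights, replicate block, groups in the fit, the Gapdh covariate and leaving out each array.

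The members and lists were chosen with earlier results of these data known. Genes named were up to 6 passing members each way per contrast with the smallest p, the 2 highest and 2 lowest by level, members of fixed interest and up to 3 passing genes per pathway list; other passing members were named after their values were seen.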

Additional observations from a re-analysis of the deposited data

How the results depend on the processing

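The members' median difference kept its sign in all alternatives for KO against WT and for XY against XX; the counts of calls moved. In XY, members lower in KO, 2 in the report, became 6 with quantile normalization repeated, 7 with the low-value filter, 4 with the mean of all probe sets, 12 with array weights, 0 with the Gapdh covariate and 13 with only the groups compared; members higher, 0 in the report, became 1 with quantile normalization repeated and 2 with array weights or only the groups compared. In XX, members lower, 4 in the report, became 10 with quantile normalization repeated, 2 centred on array medians, 0 with array weights or only the groups compared and 11 with the Gapdh covariate, which gave 1 higher. Over both sexes the 19 lower members became 28 with quantile normalization repeated (19 shared), 13 centred on array medians (13 shared), 13 with array weights (11 shared) and 8 with the Gapdh covariate (8 shared), and the 2 higher became 0 with it or with the mean of all probe sets. For XY against XX in WT, array weights gave 9 higher and 1 lower. With the Gapdh covariate the median was 0.34 for XY against XX in KO and 0.20 for the interaction. The cause of these moves was not tested. Shares of all genes are not given for these alternatives or for the refits without 1 array. The counts from these fits are thus not set against genes at large.

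Leaving out 1 array gave 0 to 9 lower and 0 to 2 higher in XY, 0 to 8 lower and 0 higher in XX, and 8 to 23 lower and 0 to 3 higher over both sexes. The sex comparison in WT gave 0 to 14 higher and 0 to 1 lower; in KO and for the interaction the count stayed 0. The medians ran from -0.24 to -0.12 in XY, -0.23 to -0.091 in XX, -0.22 to -0.14 over both sexes, 0.11 to 0.28 for sex in WT, 0.081 to 0.22 in KO and -0.11 to 0.042 for the interaction. The Gapdh difference ran from 0.670 to 1.01, -0.496 to -0.0518, 0.160 to 0.398, -0.415 to 0.0287 and 0.748 to 0.959 in the first 5 comparisons; without WT XX replicate 3 it was 0.0287 for sex in WT.

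Mrpl38, Mrpl57, Mrps11, Mrps28 and Mrps36 passed as lower over both sexes in all 21 settings, and Mrpl17, Mrpl40 and Mrps14 in 20, Mrps6 in 19 and Mrpl43 and Mrps12 in 17; Mrpl1 passed in 11 and Mrpl50 in 16. With the mean of all probe sets Mrpl1 became -0.021, Mrps14 0.14, Mrps5 0.078, Mrps2 -0.078 and Gabpa -0.027. Other members near 0 changed sign: Mrps2 with quantile normalization repeated (-0.064), array weights (-0.034) or the Gapdh covariate (-0.085), Mrps18b (0.0062) and Mrpl45 (0.025) with array weights. Leaving out arrays ran from -0.13 to 0.073 for Mrps5, -0.073 to 0.046 for Mrps2, -0.084 to 0.036 for Mrps18a, -0.054 to 0.015 for Mrps18b and -0.12 to 0.027 for Mrpl45. With the replicate block 7 members were lower in XY and 20 over both sexes, 18 of them among the 19; same-numbered arrays deviated together over all genes in WT XX with WT XY alone (correlations 0.235, 0.10 and 0.106, though WT XX replicate 3 correlated more with another number, 0.226), and not throughout in the other pairs of groups (-0.21 to 0.28). A replicate block within the WT arrays, chosen after seeing the data, gave 0 higher and 0 lower for sex in WT and changed no call. Of the 76 members, 48, 6 and 67 lay above their group mean in KO XX replicates 1 to 3. In KO XY the numbers were 59, 10 and 62, so replicate 2 was lowest in both. In WT they fell from replicate 1 to 3 in both sexes. The replicate block fits the same effect of a number in all groups. No block within the KO arrays was run, so a pairing there was not tested.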
